A study of Mus musculus with 2 samples.

Results

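The 418 Nanog peaks described here lie at the starts of long noncoding RNA (lncRNA) genes in mouse embryonic stem cells (ESCs). They are 4.79% (95% interval 4.35 to 5.25%) of the 8735 distinct peaks listed on chromosomes 1 to 19 and X. A peak was taken when its middle base fell within 5 kb of the transcription start site (TSS) of an lncRNA gene of GENCODE vM21 and over 5 kb from the TSS of every protein-coding gene. The lncRNA genes were those of the types lincRNA, antisense, sense_intronic, processed_transcript and bidirectional_promoter_lncRNA. Position alone chose the peaks, and neither sequence nor peak width entered the choice. In all, 583 peaks lay within 5 kb of an lncRNA TSS, and 165 of these were left out because a protein-coding TSS was also within 5 kb.

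Chromatin of Bruce-4 cells, a mouse ESC line, was immunoprecipitated with a monoclonal antibody against Nanog and sequenced (ChIP-seq), and an input sample without antibody was sequenced beside it. The cells grew in medium with serum and leukemia inhibitory factor, and no genotype, treatment or time distinguished the samples. There was 1 immunoprecipitated sample and 1 input sample, with no replicate of either, so no value below has a replicate error. The study's methods give an approximate number of reads for the experiment, but the peak list gives positions only. The number of reads in a peak and its strength are therefore unknown. The input was not analysed here, and the identity of the cells could not be checked from expression. The 95% intervals given below allow for counting error alone and take each peak as independent of the others.

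Nanog is a homeodomain transcription factor that holds ESCs in the pluripotent state together with Oct4 and Sox2, which often bind next to each other on a joined Sox and octamer element. Many of their sites are distal enhancers, and active enhancers and promoters of ESCs commonly give rise to noncoding transcripts. lncRNAs are transcripts without an evident protein product, and some of those expressed in ESCs fall as the cells differentiate.

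The motifs, 10 in number, were searched in every peak on both strands, and the counts below refer to these letters. The Oct4-Sox2 composite was CATTGTTATGCAAAT with at most 2 mismatches, found in 1.40% of all 8735 peaks. The Sox motif was CCATTGT or CCTTTGT, found in 28.2%. The Oct octamer was ATGCAAAT, found in 5.72%, and its letters end the composite. The Nanog core was CCATTA, found in 18.1%, and it lies within the Nanog extended motif GCCATTAA, found in 2.14%. The Klf motif was GCCACACCC, GCCACGCCC, GCCCCACCC or GCCCCGCCC, found in 8.998%. The Esrrb motif was TCAAGGTCA, found in 3.53%, the Myc E-box was CACGTG, found in 4.24%, the Tead motif was GGAATG, found in 25.4%, and the AP-1 motif was TGACTCA or TGAGTCA, found in 8.04%. A match is a description of letters and not a measured site.

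Among the 418 peaks, 5 held an Oct4-Sox2 composite match, and they are shown because their letters resemble the joined Sox and octamer element. Binding of Oct4 and Sox2 was not measured in these samples. Sequences are from GRCm38 (mm10), 5′ to 3′ on the strand of the lncRNA, with every motif match in capitals. The Gm26725 peak is chr5:66153630-66153905 (+), the 4930412E21Rik peak is chr3:23457889-23458123 (+), the Gm31456 peak is chr14:38320921-38321200 (+), the 5830416I19Rik peak is chr5:64048690-64048972 (+), and the Gm48748 stretch is chr10:9331679-9331978 (−), the middle of a 421 bp peak.
Gm26725: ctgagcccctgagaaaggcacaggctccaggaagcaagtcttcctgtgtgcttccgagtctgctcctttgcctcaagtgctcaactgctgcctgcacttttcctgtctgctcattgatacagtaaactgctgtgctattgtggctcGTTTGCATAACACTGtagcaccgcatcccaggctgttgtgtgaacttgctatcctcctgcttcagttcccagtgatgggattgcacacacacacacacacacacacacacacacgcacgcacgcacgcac
4930412E21Rik: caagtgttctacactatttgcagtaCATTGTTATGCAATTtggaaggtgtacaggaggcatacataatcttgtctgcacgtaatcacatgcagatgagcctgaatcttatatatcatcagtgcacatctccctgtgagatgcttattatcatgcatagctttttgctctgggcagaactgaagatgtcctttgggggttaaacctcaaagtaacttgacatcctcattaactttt
Gm31456: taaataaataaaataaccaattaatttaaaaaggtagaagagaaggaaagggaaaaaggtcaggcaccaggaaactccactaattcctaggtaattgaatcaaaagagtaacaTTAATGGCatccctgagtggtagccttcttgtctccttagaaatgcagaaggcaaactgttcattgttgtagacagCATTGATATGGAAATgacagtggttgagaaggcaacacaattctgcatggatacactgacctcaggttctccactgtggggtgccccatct
5830416I19Rik: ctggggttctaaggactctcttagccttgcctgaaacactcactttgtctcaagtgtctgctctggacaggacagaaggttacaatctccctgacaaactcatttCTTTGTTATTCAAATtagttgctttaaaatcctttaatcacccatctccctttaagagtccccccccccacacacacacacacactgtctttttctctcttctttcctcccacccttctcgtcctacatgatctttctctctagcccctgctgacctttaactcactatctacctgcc
Gm48748: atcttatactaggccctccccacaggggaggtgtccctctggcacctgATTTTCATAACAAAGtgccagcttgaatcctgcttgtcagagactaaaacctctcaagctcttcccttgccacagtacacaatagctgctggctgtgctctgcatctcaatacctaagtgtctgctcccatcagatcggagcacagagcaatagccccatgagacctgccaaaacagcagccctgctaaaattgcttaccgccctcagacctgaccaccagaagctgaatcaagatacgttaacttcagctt

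The 4930412E21Rik match had 1 mismatch to the composite, and the other 4 matches had 2. Gm31456 was the one peak of these 5 that also held the Nanog core and extended motifs. All 5 peaks lay over 2.5 kb from their lncRNA TSS: 3044 bp upstream for 4930412E21Rik, and 2555 bp (Gm26725), 3156 bp (Gm31456), 3853 bp (5830416I19Rik) and 4790 bp (Gm48748) downstream. The peaks of Gm26725, Gm31456 and Gm48748 were intronic, that of 5830416I19Rik was exonic, and that of 4930412E21Rik was upstream of its gene. Gm26725 is antisense to the RNA-binding protein gene Rbm47, and the peak lies inside that gene, while the protein-coding TSS nearest to 4930412E21Rik, that of Tbl1xr1, was 1381 kb away.

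A peak contained the lncRNA TSS itself in 30 of the 418 cases (7.18%, 4.89 to 10.1%). The next 6 sequences are peaks of this kind, with the same build, orientation and capitals, and they are shown because Nanog was found there at the annotated start itself. The Platr22 stretch is chr1:136695998-136696297 (+), the middle of a 479 bp peak, with the TSS at base 214 of the run. The AC127690.1 peak is chr17:45961708-45961969 (+) with the TSS at base 152. The Gm17552 peak is chr19:4169463-4169698 (+) with the TSS at base 104. The Gm5091 peak is chr17:15247786-15248020 (−), also with the TSS at base 104. The 2310016D23Rik peak is chr1:60778686-60778945 (+) with the TSS at base 158, and the Gm47850 peak is chr13:112764664-112764954 (+) with the TSS at base 185.
Platr22: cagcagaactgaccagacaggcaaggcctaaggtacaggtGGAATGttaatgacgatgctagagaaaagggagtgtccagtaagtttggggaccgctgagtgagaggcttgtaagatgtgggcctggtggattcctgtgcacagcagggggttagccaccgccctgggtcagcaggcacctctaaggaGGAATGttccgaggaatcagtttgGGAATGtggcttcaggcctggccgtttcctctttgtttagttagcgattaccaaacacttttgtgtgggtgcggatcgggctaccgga
AC127690.1: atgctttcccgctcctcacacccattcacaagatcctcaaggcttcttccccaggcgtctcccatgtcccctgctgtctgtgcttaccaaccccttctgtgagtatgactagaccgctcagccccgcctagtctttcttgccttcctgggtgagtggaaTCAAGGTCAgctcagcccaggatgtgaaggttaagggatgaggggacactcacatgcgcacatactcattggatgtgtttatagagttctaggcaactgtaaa
Gm17552: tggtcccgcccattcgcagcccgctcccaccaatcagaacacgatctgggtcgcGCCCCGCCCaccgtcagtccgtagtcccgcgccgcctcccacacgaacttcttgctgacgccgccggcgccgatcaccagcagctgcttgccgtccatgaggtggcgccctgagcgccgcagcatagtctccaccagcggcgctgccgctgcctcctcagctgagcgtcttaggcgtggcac
Gm5091: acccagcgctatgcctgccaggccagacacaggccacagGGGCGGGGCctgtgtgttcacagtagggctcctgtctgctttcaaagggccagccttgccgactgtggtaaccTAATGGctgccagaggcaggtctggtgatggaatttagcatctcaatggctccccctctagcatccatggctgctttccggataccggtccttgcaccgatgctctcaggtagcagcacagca
2310016D23Rik: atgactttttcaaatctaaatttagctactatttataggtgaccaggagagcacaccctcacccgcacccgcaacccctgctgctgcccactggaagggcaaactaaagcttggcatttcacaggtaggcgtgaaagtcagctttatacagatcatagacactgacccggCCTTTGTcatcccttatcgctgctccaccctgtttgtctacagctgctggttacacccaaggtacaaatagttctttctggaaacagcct
Gm47850: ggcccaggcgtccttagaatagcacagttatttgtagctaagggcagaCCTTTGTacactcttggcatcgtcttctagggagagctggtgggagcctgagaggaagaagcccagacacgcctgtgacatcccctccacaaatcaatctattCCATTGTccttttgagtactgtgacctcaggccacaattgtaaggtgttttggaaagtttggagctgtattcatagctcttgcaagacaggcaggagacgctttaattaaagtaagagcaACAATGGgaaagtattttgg

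The printed Platr22 stretch held 3 Tead matches, and its whole peak also held a Myc E-box. AC127690.1 held an Esrrb match, Gm17552 a Klf match, Gm5091 a Klf and a Nanog core match, 2310016D23Rik a Sox match, and Gm47850 3 Sox matches. The Gm17552 peak was the richest in G and C of these, at 69.1%, with an observed to expected CpG ratio of 1.01. It lies inside Carns1, the carnosine synthase gene, which is transcribed on the opposite strand. Among the 10 TSS-containing peaks with the centre nearest to the TSS, the centre lay 9 bp (AC134446.1) to 39 bp (Gm47850) from it. Between these were Gm16233 (11 bp), Gm17552 and Gm5091 (both 14 bp), AC127690.1 (21 bp), Gm38150 (27 bp), 2310016D23Rik and 4930556N13Rik (both 28 bp) and AC091309.7 (34 bp).

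Nanog peaks were denser at lncRNA starts than in the genome as a whole. The sequence that satisfies the rule spans 70.4 Mb, or 2.75% of the non-N sequence of chromosomes 1 to 19 and X, and held 5.94 peaks per Mb (5.38 to 6.54). The whole of these chromosomes held 3.41 peaks per Mb, and the sequence over 5 kb from both kinds of start held 3.07 (2.996 to 3.14). Within 5 kb of protein-coding TSSs the density was 6.58 peaks per Mb (6.23 to 6.95), and this interval overlapped that of lncRNA starts. With the lncRNA starts split by distance, the density was highest at 0 to 1 kb, with 7.48 peaks per Mb (6.13 to 9.04), and at 3 to 4 kb, with 7.06 (5.73 to 8.60). The other 3 bands lay between 4.87 and 5.25 peaks per Mb, and the intervals of all 5 bands overlapped.

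**Figure D1:**
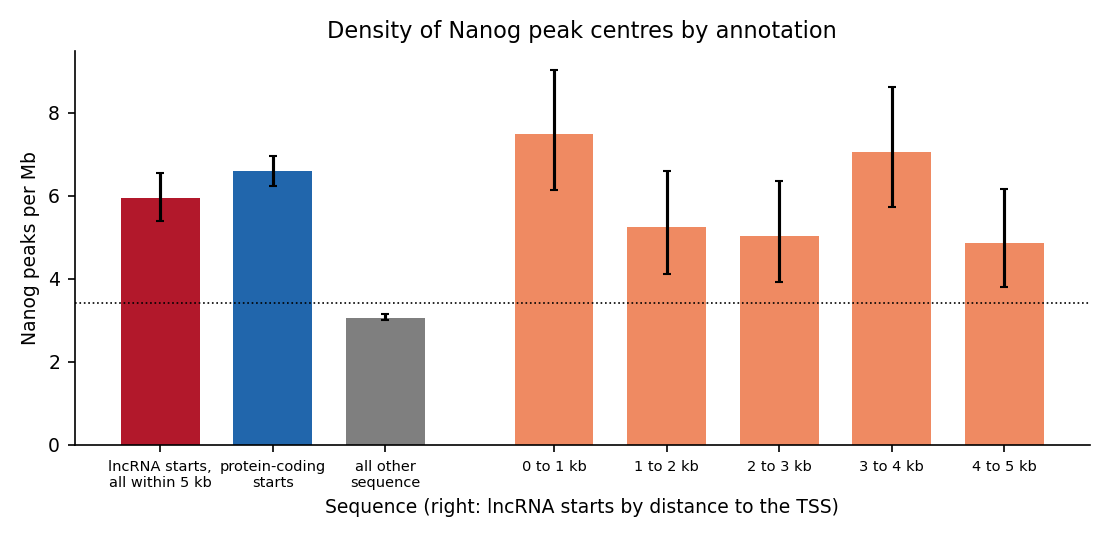
Nanog peak centres per Mb (y axis) in sequence within 5 kb of an lncRNA TSS, within 5 kb of a protein-coding TSS and elsewhere (left bars), and at lncRNA starts by distance to the TSS (right bars), with exact 95% Poisson intervals and the density of all sequence (3.41) as a dotted line. All 5 distance bands of lncRNA starts lie above the dotted line, from 4.87 to 7.48 peaks per Mb.

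Most of these peaks were not centred on the start. The median distance to the lncRNA TSS was 2403 bp, with quartiles of 959 and 3623 bp and a range of 9 to 4980 bp. Within 250 bp of the TSS lay 10.5% of the peaks (7.75 to 13.9%), against 22.01% (19.8 to 24.4%) of the 1281 peaks at protein-coding starts. The TSS was contained in 17.4% (15.4 to 19.6%) of the peaks at protein-coding starts, against the 7.18% given above for lncRNA starts. The intervals of the groups did not overlap in either measure, and peaks at lncRNA starts were thus spread more widely around the annotated start. In 1 kb bins, the bin just upstream of the lncRNA TSS held the most peaks, 66 of 418 (15.8%, 12.4 to 19.6%), and the other 9 bins held 30 to 51.

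**Figure D2:**
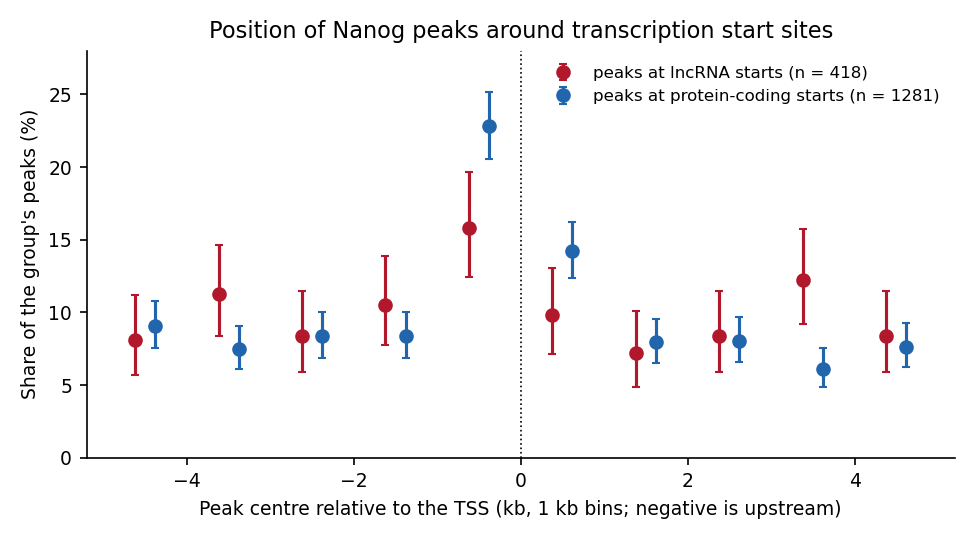
Share of peaks (y axis, %) in 1 kb bins of the distance from the TSS to the peak centre (x axis, kb, negative upstream) for the 418 peaks at lncRNA starts and the 1281 at protein-coding starts, with exact 95% intervals. Both groups peak in the bin just upstream of the TSS, at 15.8% and 22.8%.

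Upstream of the lncRNA gene lay 226 of the 418 peaks (54.1%, 49.2 to 58.9%), an interval that includes equal numbers on each side. The interval did not include them for the peaks within 1 kb of the TSS (61.7%, 51.8 to 70.9%) or within 2.5 kb (58.5%, 51.7 to 65.2%). An intron of the lncRNA gene held 114 peaks (27.3%), an exon held 33 (7.89%), and 45 (10.8%) lay beyond its 3′ end, which requires a gene shorter than 5 kb. By gene type, 271 peaks belonged to lincRNAs, 102 to antisense genes, 29 to processed transcripts and 16 to sense intronic genes. No peak belonged to a bidirectional promoter lncRNA, a type that starts next to a protein-coding TSS and is therefore largely removed by the rule. The centre lay inside a protein-coding gene in 128 cases, and in 102 of these that gene was on the strand opposite to the lncRNA. The share inside a protein-coding gene was 77.5% for antisense genes and 8.86% for lincRNAs, as their definitions entail.

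The nearest protein-coding TSS was a median of 40.9 kb away, with quartiles of 19.8 and 94.3 kb. At the limits of the rule, the peaks just inside 5 kb of the lncRNA TSS were those of Gm45766 (4965 bp) and Gm4861 (4980 bp), and those just outside were near Gm4279 (5019 bp) and Gm16048 (5025 bp). Just inside the limit to protein-coding starts were the Kcnab3os peak, 5073 bp from the TSS of Kcnab3, and the Gm26859 peak, 5100 bp from that of Syt7. Just outside it was a peak near Gm14963, 4858 bp from the TSS of Ehd1.

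The 418 peaks were assigned to 385 lncRNA genes, and 26 of them lay within 5 kb of more than 1 lncRNA TSS. A single peak was assigned to 352 genes, 33 genes had 2, and no gene had more. Of the 33 genes with a pair, 14 had a peak on each side of the TSS, 11 had both upstream and 8 had both downstream. Among the 33, the genes with the widest peaks were Platr19, AI463170, B930092H01Rik, 2410021H03Rik and Gm12860, whose wider peaks measured 908, 745, 615, 585 and 546 bp. The wider peak of B930092H01Rik, 365 bp downstream of its TSS, held Sox, Oct octamer, Nanog core and Tead matches. The lncRNA genes with such a peak resembled the others in span and exon number. Their median span was 6.01 kb against 6.79 kb for the 9183 other lncRNA genes, and the median was 3 exons in both. Single-exon models made up 5.19% of the 385 genes and 7.503% of the others (ratio 0.692, 0.449 to 1.07), a ratio whose interval includes 1. Among genes over 5 kb from every protein-coding TSS, manual annotation was slightly less frequent in those with such a peak than in the others. The shares were 95.95% and 98.25% (0.977, 0.956 to 0.9975). Among all lncRNA genes they were 95.84% and 97.75%, with an interval that includes 1 (0.9805, 0.9601 to 1.001).

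As a background for single genes, 564 of the 9568 lncRNA genes of these types (5.89%) had any Nanog peak centre within 5 kb of the TSS, and 1360 of 21755 protein-coding genes did (6.25%). The stricter condition of being the nearest lncRNA gene of a peak at an lncRNA start held for 385 of the 9568, or 4.02%. Lists of lncRNA genes were read against this last share, with no test.

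The pluripotency-associated transcripts (Platr genes) are lncRNAs named for expression that accompanies pluripotency in mouse ESCs. Of the 28 Platr genes of these types, 7 (25.0%, 10.7 to 44.9%) had a Nanog peak at their start, against 4.02% of all lncRNA genes. Among Platr genes over 5 kb from every protein-coding TSS, 6 of 24 did (25.0%, 9.77 to 46.7%). Among all lncRNA genes that far, 370 had such a peak and 6909 did not, and 5.495% of these 7279 genes had any peak within 5 kb. The median distance from a Platr TSS to the nearest peak centre was 25.6 kb, against 87.2 kb for all lncRNA genes and 85.3 kb for protein-coding genes. A peak lay within 50 kb of 20 of the 28 Platr TSSs (71.4%), against 34.5% of all lncRNA genes.

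**Figure D3:**
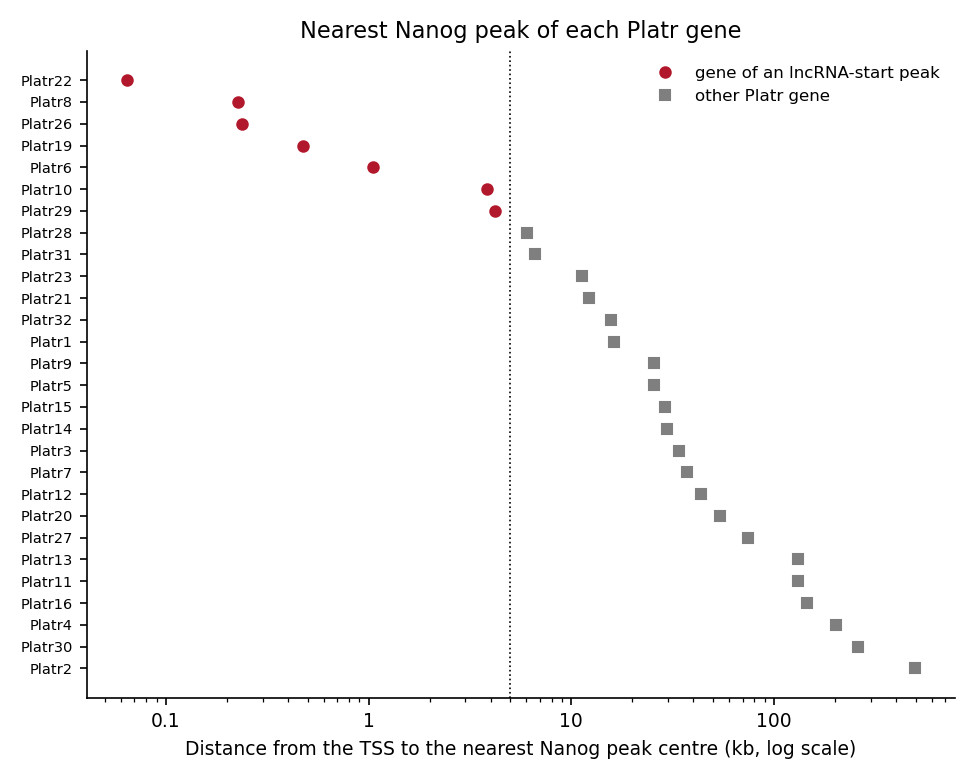
Distance from the TSS of each of the 28 Platr genes to the nearest Nanog peak centre (x axis, kb, log scale), with the 5 kb limit as a dotted line. The 7 genes with a peak at their start (circles) lie at 0.064 to 4.20 kb, and the other 21 (squares) at 6.02 to 498.6 kb; the point of Platr8 is a peak that the rule left out, because it is also at the start of Lgr4.

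Platr22, a lincRNA on chromosome 1, had 2 peaks upstream of its TSS, centred at 991 and 64 bp, the second of which contained the TSS and is printed above. Their nearest protein-coding gene was Zfp281, a zinc finger regulator of pluripotency, at 70.3 and 71.2 kb. Another peak of the set, at Gm19705, lay 49.8 kb from the same Zfp281 TSS. Platr19, on chromosome 12, had the widest peak of all 418, 908 bp, centred in an intron 476 bp downstream of its TSS, and a second one of 274 bp centred 3572 bp upstream. The wide peak held the Nanog core and extended motifs, ranked 12 by width among all 8735 peaks and was listed on 2 lines. Its nearest protein-coding TSS, that of Mycn, a Myc family gene, was 153.5 kb away.

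Platr6, on chromosome 10, had both of its peaks upstream, centred at 1054 bp with a Tead match and at 3308 bp with Sox and Nanog core matches. The remaining Platr genes had 1 such peak each. The Platr26 peak was centred 238 bp upstream of the TSS and held none of the motifs. The Platr10 peak, 3834 bp downstream, held an Esrrb match, the Platr29 peak, 4201 bp downstream, held none, and the Platr8 peak, 4568 bp downstream, held a Sox match. All 3 were intronic. Platr8 had in addition a peak 227 bp upstream of its TSS that was not counted here, because it is also within 5 kb of the TSS of Lgr4, a receptor of R-spondins in Wnt signalling, which lies 4.33 kb from that of Platr8. Of the 10 Platr peaks, 6 were upstream and 1 contained the TSS, beside 54.1% and 7.18% of all 418. Another Nanog peak lay within 12500 bp of 9 of them, beside 27.99% of all 418, but 6 of these 9 were the paired peaks of Platr22, Platr19 and Platr6.

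The other lists gave few genes. Of 6 nuclear or abundant lncRNAs, 2 had such a peak: Malat1, a highly abundant RNA of nuclear speckles, 3520 bp upstream with Sox and Klf matches, and 2900097C17Rik, the mouse gene of the Pumilio-binding RNA Norad, 2620 bp upstream with no match. Of 10 miRNA host genes, Mir124-2hg had one, 2575 bp upstream. None was found at 22 lncRNAs studied in stem cells and development, 13 snoRNA host genes, 10 imprinted lncRNAs and 4 lncRNAs of X inactivation, where the exact intervals of these zero counts reach 15.4%, 24.7%, 30.8% and 60.2%. Of the 22, Evx1os and Panct2 had a peak 101 and 3701 bp from the TSS that was not counted, because a protein-coding TSS was also within 5 kb. Neat1, the RNA scaffold of paraspeckles, had a peak 404 bp from its TSS that was assigned to Frmd8os, whose TSS was nearer. These 3 genes fall outside the naming rule and were chosen after their values were seen. Among opposite-strand genes, named for the coding gene they oppose, 11 of 287 had such a peak (3.83%, 1.93 to 6.75%), a share near the 4.02% of all lncRNA genes.

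**Figure D4:**
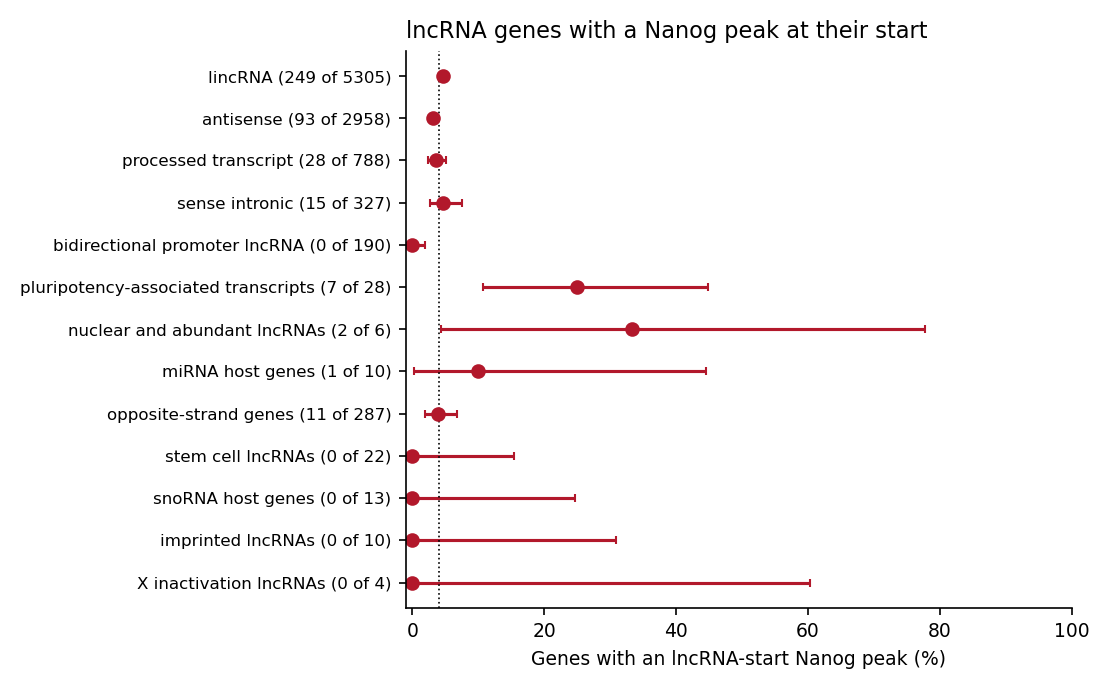
Share of lncRNA genes with a Nanog peak at their start (x axis, %) by gene type (upper 5 rows) and by list (lower 8 rows), with exact 95% intervals and the share of all lncRNA genes (4.02%) as a dotted line. The intervals of the Platr genes (10.7 to 44.9%), the 6 nuclear or abundant lncRNAs (4.33 to 77.7%) and lincRNAs (4.14 to 5.30%) lie to the right of the line, and those of antisense (2.54 to 3.84%) and bidirectional promoter lncRNAs (up to 1.92%) to its left. The rule lowers the share of types that start near protein-coding TSSs. With any peak within 5 kb counted, lincRNAs (5.71%, 5.10 to 6.37%) and antisense genes (5.81%, 4.999 to 6.72%) had similar shares.

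The 11 opposite-strand genes were Frmd8os, Gad1os, Ict1os, Igf2os, Kcnab3os, Lrp8os1, Ppp2r2cos, Sap30bpos, Scpep1os, Slmapos2 and Srrm4os. Frmd8os had 2 peaks, 259 and 3819 bp downstream of its TSS, and the first was rich in G and C (65.3%) with a CpG ratio of 0.878. The Ppp2r2cos peak contained the TSS, with its centre 93 bp upstream, and held a Sox match. The Srrm4os peak, 296 bp upstream, held Sox and Nanog core matches, and Srrm4, the gene it opposes, encodes a splicing regulator of neurons. The widest of these peaks, 538 bp with a Klf match, lay 3698 bp upstream of Igf2os and inside Igf2, which encodes an imprinted growth factor. Igf2os was not among the 10 genes of the imprinted list above. The Gad1os peak, 3776 bp downstream, held no match and lay inside Gad1, which encodes an enzyme of GABA synthesis.

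Seen from the protein-coding side, 7 of 58 pluripotency regulators were the nearest protein-coding gene of a peak at an lncRNA start within 100 kb (12.1%, 4.99 to 23.3%), against 1.3% of all protein-coding genes. Of 61 lineage regulators 2 were (3.28%, 0.400 to 11.3%). The pluripotency regulators were Klf4, Mycn, Otx2, Sall4, Spry2, Utf1 and Zfp281, and the lineage regulators were Lhx2 and Zeb2. The nearest were the Gm14261 peak, 5.16 kb from the TSS of Sall4, a zinc finger factor of the pluripotency network, and the Gm16201 peak, 6.77 kb from that of Utf1, a chromatin protein of undifferentiated ESCs. The Gm14261 peak held Nanog core and Tead matches, and the Gm16201 peak, centred 161 bp downstream of its lncRNA TSS, held none.

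The Gm12510 peak lay 68.1 kb from the TSS of Klf4, a reprogramming factor. At 819 bp it was the second widest of the 418 peaks, with Sox and Nanog core matches. Gm48970 had 2 peaks, 31.9 and 37.2 kb from Spry2, an inhibitor of receptor tyrosine kinase signalling, and the second held Esrrb and Myc E-box matches. The Gm35208 peak was 41.3 kb from Mycn with Tead and AP-1 matches, and the Gm49120 peak 79.2 kb from Otx2, a homeobox gene of the formative state and the forebrain, with no match. The Gm28643 peak, with Sox and Nanog core matches, lay 41.2 kb from Zeb2, a repressor of the epithelial state, and the Gm13589 peak, with no match, 83.2 kb from Lhx2, a homeobox gene of the forebrain.

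Peak width ranged from 235 to 908 bp, and the median was 319.5 bp with 264 and 393.8 bp as quartiles. A width at or above the median of the whole list was found in 50.0% of them and in 50.2% of the 8317 other peaks (ratio 0.996, 0.902 to 1.10). After the Platr19 and Gm12510 peaks, the widest were at 0610005C13Rik (790 bp), 5330438D12Rik (769 bp) and AI463170 (745 bp). The 0610005C13Rik peak, 2258 bp upstream and inside Bcat2, an aminotransferase gene, held Sox, Nanog core, Nanog extended and Tead matches.

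Motifs were next compared between the peaks and windows of the same width, 1 kb beyond each edge. Klf matches were found in 10.0% of the peaks and 3.30% of the 819 windows (ratio 3.05, 1.91 to 4.87). Sox matches were found in 119 of 418 peaks (28.5%) and 102 of 819 windows (2.29, 1.80 to 2.90), Esrrb matches in 3.59% and 1.34% (2.67, 1.24 to 5.76), and Oct octamers in 4.55% and 1.95% (2.33, 1.21 to 4.48). Tead (1.32, 1.07 to 1.64) and AP-1 (1.52, 1.01 to 2.28) were more frequent in the peaks by smaller ratios. For these 6 motifs the interval excluded 1, but with windows of 200 bp around the centre it did so for Klf, Sox and Tead and not for Esrrb, Oct octamer and AP-1. The peaks held more G and C than the flanking windows, 49.4% against 45.7% (difference 3.76 percentage points, 3.01 to 4.51). The part of base composition in these ratios was not tested.

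For the Nanog motifs no difference from the windows could be shown. The Nanog core was found in 16.99% of peaks and 14.9% of windows (1.14, 0.872 to 1.49), and the extended motif in 1.91% and 1.22% (1.57, 0.623 to 3.94). The Myc E-box ratio was 1.54 (0.958 to 2.46). The Oct4-Sox2 composite was found in 5 of 418 peaks (1.20%, 0.390 to 2.77%) and 0 of 819 windows (up to 0.449%), so that no ratio could be given. The overlap of these 2 exact intervals does not decide whether the shares differ. With 3 mismatches the composite was found in 37 peaks (8.85%) and 2 windows (0.244%), a ratio of 36.25 (8.78 to 149.7). In all, 69.4% of the peaks held at least 1 of the 10 motifs and 128 held none.

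**Figure D5:**
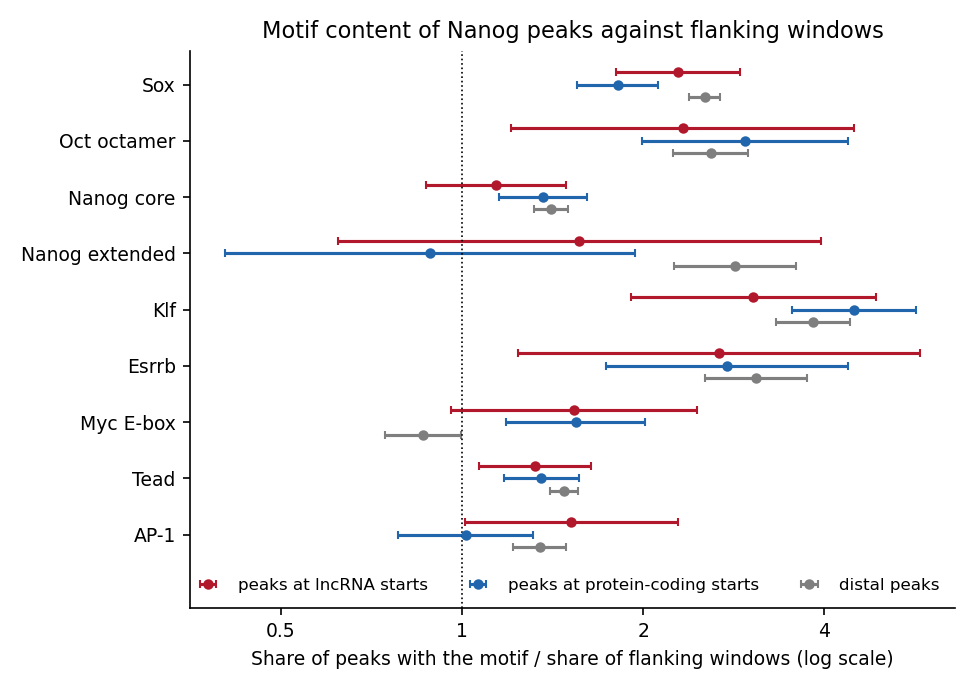
Share of peaks with a motif divided by the share of flanking windows (x axis, log scale) for 9 motifs and for peaks at lncRNA starts, at protein-coding starts and over 5 kb from both (distal), with 95% intervals; the dotted line marks 1. For peaks at lncRNA starts the intervals of Sox, Oct octamer, Klf, Esrrb, Tead and AP-1 lie to the right of 1, and the composite is not drawn because no flanking window of these peaks held it.

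Around the peak centres, Sox matches were concentrated most among motifs with at least 10 copies within 50 bp. They occurred 1.48 times per kb within 50 bp of the centre and 0.321 times per kb between 500 and 1000 bp, so that the densities differed 4.63-fold. The densities of the other motifs of this kind differed 2.68-fold for Klf, 2.10-fold for the Nanog core, 1.52-fold for Tead and 1.16-fold for AP-1.

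The 418 peaks were then compared with other peaks in 17 properties. Against all 8317 other peaks, the intervals of 3 of the 17 ratios excluded 1. The Myc E-box was more frequent at lncRNA starts, 6.94% against 4.10% (1.69, 1.17 to 2.44), but with windows of 200 bp the interval included 1. This excess was not seen against protein-coding starts alone, where the E-box share was 7.10% (ratio 0.977, 0.653 to 1.46). A centre in a repeat, as soft-masked in the assembly, was less frequent than in all other peaks, 14.1% against 20.7% (0.683, 0.537 to 0.868). Against protein-coding starts alone, where 15.6% had such a centre, the interval included 1 (0.904, 0.691 to 1.18). A centre inside a protein-coding gene was also less frequent than in all other peaks, 30.6% against 47.6% (0.644, 0.556 to 0.745), a measure that the rule partly fixes. The composite, Sox, octamer, Nanog, Klf, Esrrb, Tead and AP-1 motifs had ratios of 0.786 to 1.14, with intervals that included 1 and together ran from 0.349 to 2.07. Since 51 ratios were computed over 3 such comparisons and their intervals were not adjusted for that number, single ratios near 1 carry little weight.

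Against the 1281 peaks at protein-coding starts, peaks at lncRNA starts were poorer in CpG and in Klf matches and richer in Sox matches. The mean G and C content was 49.4% against 52.6% (difference −3.17 percentage points, −3.92 to −2.42). A CpG ratio of 0.6 or more was found in 20 peaks at lncRNA starts (4.78%) and in 25.8% of those at protein-coding starts (ratio 0.185, 0.1195 to 0.287). Klf matches were found in 10.0% against 16.2% (0.622, 0.455 to 0.850), Sox in 28.5% against 20.0% (1.42, 1.18 to 1.72), Tead in 25.8% against 20.3% (1.27, 1.05 to 1.55), and the Nanog extended motif in 8 of 418 peaks against 9 of 1281 (2.72, 1.06 to 7.01). The Klf letters consist mostly of G and C and those of the other 3 motifs hold more A and T, and the part of base composition in these ratios was not tested.

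Against the 7036 distal peaks, over 5 kb from both kinds of start, the motif shares of peaks at lncRNA starts gave ratios with intervals that included 1, except for the Myc E-box (6.94% against 3.55%, ratio 1.95, 1.35 to 2.83). The G and C content was higher by 2.00 percentage points (1.42 to 2.59), and a CpG ratio of 0.6 or more was more frequent, 4.78% against 1.73% (2.76, 1.74 to 4.38). The E-box letters hold a CpG, and the part of CpG content in its ratio was not tested. Another Nanog peak lay within 12500 bp of 27.99% (23.7 to 32.6%) of the peaks at lncRNA starts and of 23.9% (22.9 to 24.9%) of the distal peaks.

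Within the set, the 107 peaks within 1 kb of the TSS had a higher G and C content than the 311 farther away, 52.0% against 48.5% (difference 3.501 percentage points, 2.12 to 4.88). A CpG ratio of 0.6 or more was found in 10 of the 107 and 10 of the 311 (9.35% against 3.22%, ratio 2.91, 1.24 to 6.79). Tead matches were less frequent near the TSS, 17.8% against 28.6% (0.621, 0.398 to 0.967), while Sox matches were found in 29.0% and 28.3% (1.02, 0.725 to 1.45). All 5 composite matches were among the 311 peaks beyond 1 kb, and the exact interval of 0 of 107 reaches 3.39%.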

How the data were processed

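Nanog ChIP-seq and input libraries of Bruce-4 ESCs gave 1 peak list, for the immunoprecipitated sample. Per the study's methods and the submitters' processing notes, reads were inspected with FastQC and aligned to mm10 with Bowtie2. SAMtools and bedtools served for filtering and MACS2 for the peak call. Its threshold and the use of the input as control are not given in the sources used here, and they set which weak sites are listed. The authors deposited chromosome, start and end only, without a score, so depth and precision per peak are unknown. Of 8860 lines, 123 repeated an interval and were counted once.

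Distances ran from the middle base of a peak to the 5′ end of the gene in GENCODE vM21. Sequence came from GRCm38, and positions are 1-based. Flanking windows with N bases or peaks were left out. Shares carry exact Clopper-Pearson intervals, densities exact Poisson intervals, and ratios intervals on the log scale. No p-value was computed, because peaks of 1 library are not replicates. Python 3.11.15, pandas 2.3.3, numpy 2.4.6 and scipy 1.17.1 were used, and motif search, distances and ratio intervals were tested on simulated data.

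Genes were named by rule: listed lncRNA genes with such a peak, the 5 genes with the most peaks (ties to the widest), the 10 TSS-containing peaks centred nearest to the TSS, peaks with a composite match, the 5 widest peaks, listed protein-coding neighbours within 100 kb, and the peaks next to the 5 kb limits. A single item that this rule selects is not reported here. The sequences printed are 11 of the peaks that contain a TSS or hold a composite match. The members and the lists were chosen with earlier results of these data known.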

Additional observations from a re-analysis of the deposited data

How the results depend on the processing

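Of 70 alternatives, 45 left a share within its interval or a call as it was, and none reversed the direction of a call. Against all other peaks, 4 ratios whose intervals included 1 throughout crossed it: Sox (0.955), Nanog core (1.005) and Nanog extended (1.14) in windows of 200 bp, and Esrrb (0.946) among wider peaks. The share of peaks at lncRNA starts was 1.23, 2.48 and 9.42% with limits of 1, 2.5 and 10 kb to the lncRNA TSS, 5.31% with the TSS of every transcript, 5.95% with all long noncoding gene types and 6.67% without the exclusion of protein-coding starts. Upstream peaks made up 61.7% within 1 kb and 58.5% within 2.5 kb of the TSS, with intervals that excluded 50%. Against the flanking windows, the interval came to include 1 in windows of 200 bp, among the wider peaks (from the median of the list upwards) and within 2.5 kb of the TSS for the Oct octamer (ratios 2.14, 2.24 and 1.15), Esrrb (2.47, 1.74 and 2.62) and AP-1 (1.68, 1.28 and 1.45), and for Tead within 2.5 kb (1.22). Against all other peaks it did so for the Myc E-box in windows of 200 bp (1.41). A neighbouring peak was found for 16.5% of the peaks at 5 kb, 41.4% at 25 kb and 12.9% among wider peaks. Of lncRNA genes, 1.78 and 3.42% had a peak within 1 and 2.5 kb. The Platr count, an alternative chosen after seeing the data, was 3 within 1 kb and 4 within 2.5 kb. With at most 2 mismatches the composite has no ratio to flanking windows, which held none, so its alternatives against them are not given. Its ratio with 3 mismatches is given above. No paired analysis was possible because the input has no peak list. Without read counts or strength for each peak, weak and strong peaks cannot be told apart.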

Other observations

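Chromosome 17 held 33 of the 418 peaks, or 11.2 per Mb of the sequence within the rule, and chromosome X held 2, or 1.49 per Mb. The other 18 chromosomes ranged from 3.27 to 7.84 per Mb. As a share of all Nanog peaks of the chromosome, they were 33 of 375 on chromosome 17 (8.8%, 6.135 to 12.14%). On chromosome X they were 2 of 140 (1.429%, 0.1735 to 5.065%), an interval that includes the 4.785% of all 8735 peaks. Each value rests on few peaks of 1 library, and the differences between chromosomes were not tested.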
